A study of Mus musculus with 30 samples.

Results

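Mouse dendritic cells of wild-type animals (WT) were compared between 6 h and 9 h after viable conidia, the spores of the mould Aspergillus fumigatus (strain AF29), were added. Every gene of the deposited table with enough counts was taken, so 12393 of 54532 genes were tested, in 6 of the 30 libraries of the series: 3 of WT cells at 6 h and 3 at 9 h. The cells were grown for 6 days with GM-CSF from marrow of the tibia and femur, replated, and given as many conidia as there were cells. Later paragraphs also use cells of Nlrx1-deficient mice (KO) at 6 h and 9 h and WT cells at 3 h and 12 h, and levels are given or plotted for both genotypes at 0, 3, 6, 9 and 12 h. Both groups of the comparison had received conidia, so it covers 1 interval of an ongoing challenge and not the challenge against resting cells. The labels give neither strain nor age, and nothing in them ties the 3 libraries of a group to different mice or dishes. The p-values therefore measure only the spread between libraries of the same group, pooled over all 30 libraries, which may be technical.

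Conidia swell and germinate over hours, and their cell wall then shows beta-glucan, the ligand of the receptor Dectin-1. That receptor signals through Syk and CARD9 to NF-kappaB, which drives genes of interleukin-1, tumour necrosis factor and the chemokines that call neutrophils through their receptor CXCR2. NRF2, a transcription factor held in check by Keap1, drives genes of glutathione, thioredoxin, heme and iron handling when cells meet oxidants, and cultures of this kind are known to hold macrophage-like cells and some granulocytes beside dendritic cells.

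Levels are CPM, counts relative to the library's total after TMM scaling, given for the 3 libraries in replicate order, and changes are log2(9 h over 6 h) ± standard error from edgeR's quasi-likelihood test on all 30 libraries. A gene is said to have risen or fallen where the Benjamini-Hochberg adjusted p was under 0.05. Total counts ran from 2405405 to 2505389 at 6 h and from 3020533 to 3163518 at 9 h, so every 9 h library was the deeper. The labelled cell type was checked by its markers: 15 of 17 conventional dendritic cell markers were tested, with a summed level of 3567 to 3661 CPM at 6 h and 3488 to 3703 CPM at 9 h. For 16 macrophage markers the sum was 17780 to 18680 and 19320 to 19840 CPM. Lyz2 (means 8083 and 8450 CPM) and Gpnmb (6278 and 7135 CPM) held most of the macrophage sum, so the sums do not compare the cell types. Of the dendritic cell markers, Cd74 (1239 and 1229 CPM) and Itgax (1200 and 1177 CPM) were highest. Zbtb46 was at 10.99 and 13.35 CPM. Xcr1 had 12 counts in all at each time, and the untested Flt3 and Cd209a had 5 and 0 at 6 h and 11 and 3 at 9 h. No B cell marker and no T or NK cell marker had enough counts to be tested, and Cd3d, Cd3g and Trac were at 0 in all 6 libraries. Nlrx1 itself had 14, 32 and 15 counts at 6 h and 38, 27 and 46 at 9 h in WT, against 3, 12 and 0 and then 11, 8 and 0 in the libraries labelled KO.

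The step raised 65 genes (0.524% of those tested) and lowered 103 (0.831%). The rises were all in protein-coding genes (0.619% of 10504), were mostly modest, and held interleukin-1, tumour necrosis factor, CXCR2 chemokines and NRF2 targets. Only 8 rose by at least 2-fold. The falls were of another kind: 71 of them were structural or small RNA genes (26.8% of 265 tested), 18 were protein-coding (0.171%) and 14 were others, and 57 fell by at least 2-fold. The median change was 0.01 over all genes, 0.02 over protein-coding genes and -0.75 over structural and small RNA genes. The libraries of 6 h and 9 h did not overlap for 167 of these 168 genes, which the same libraries selected, and for 16.7% of all genes tested. With protein-coding genes alone scaled and tested, 37 rose and 18 fell.

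These counts depend on the libraries used. They came to 94 genes with WT 6 h replicate 3 left out, to 110 with WT 9 h replicate 2 left out and to 82 with WT 9 h replicate 3 left out, and 25 of the 65 rises passed with each of the 6 libraries left out in turn. Fitted on the 6 libraries alone, 19 genes rose and 23 fell. The share of all counts in structural and small RNA genes was 21.6% to 22.6% at 6 h and 17.7% to 19.8% at 9 h, and with that share of each library as a covariate no gene passed (583 genes at an unadjusted p under 0.05), with a median change of 0.40 in place of 0.43 for the 65 rises, -0.38 in place of -0.57 for the protein-coding falls, -0.38 in place of -1.12 for the structural and small RNA falls and -0.25 in place of -0.79 for the others. The sign was kept by all 65 rises, by 17 of 18, by 62 of 71 and by 12 of 14. Since the share and the time differ together in these 6 libraries, their parts cannot be told apart within them.

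Of 20 inflammatory cytokine genes tested, 3 rose and none fell, with a median change of 0.55: Il1b, Il1a and Tnf, the genes of interleukin-1 beta, interleukin-1 alpha and tumour necrosis factor. Il1b (chromosome 2, 129364570 to 129371139, minus strand, GRCm38) stood at 19.5, 15.8 and 24.1 CPM at 6 h and at 40.2, 34.7 and 37.0 CPM at 9 h. Every 9 h library was above every 6 h library, a 1.88-fold rise (0.91 ± 0.12, adjusted p = 2.15e-05). Il1a, which lies on the same chromosome, went from 63.7, 93.6 and 85.0 CPM to 145, 137 and 126 CPM. The lowest 9 h library was again above the highest at 6 h (0.75 ± 0.12, adjusted p = 0.00064). Tnf (chromosome 17) was at 96.8, 77.0 and 77.3 CPM and then at 153, 135 and 140 CPM, a rise with no overlap (0.77 ± 0.11, adjusted p = 7.65e-05). These 3 calls held with any 1 of the 6 libraries left out, but in a fit of the 6 libraries alone Il1b and Il1a missed the threshold (adjusted p = 0.053 and 0.0522).

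The other cytokine genes did not pass. The interleukin-1 receptor antagonist gene Il1rn, which blocks the receptor that Il1a and Il1b engage, was at 608, 634 and 610 CPM at 6 h and 682, 577 and 611 CPM at 9 h, and the groups overlapped (0.01 ± 0.30, adjusted p = 0.997). Spp1, the osteopontin gene and the most abundant of the list, was at 2191 ± 147 and 2024 ± 59.1 CPM (SD, n = 3; -0.11 ± 0.04, adjusted p = 0.259). The T helper polarising genes Il6, Il12b and Il23a stayed under 5 CPM in every library of both times, and their changes of 0.66, 0.66 and 1.58 had standard errors of 0.89, 0.63 and 1.08. With errors that large, the changes of these genes could not be told from 0.

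**Figure D1:**
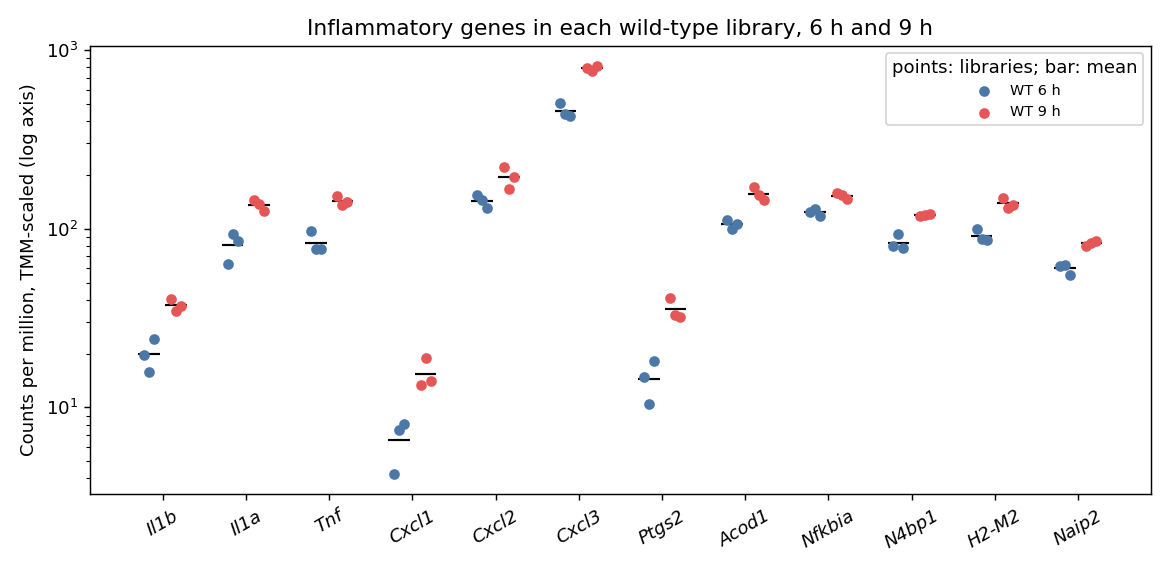
CPM (log axis) of 12 inflammatory genes in each of the 3 WT libraries at 6 h (blue) and 9 h (red); bars are means. For each of the 12 genes the lowest 9 h library lies above the highest 6 h library, and Ptgs2 and Cxcl1 show the widest gaps, 2.42-fold and 2.34-fold between means.

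Among 24 chemokine and chemokine receptor genes, 3 rose and none fell, and the median of the list was -0.09. The 3 were Cxcl1, Cxcl2 and Cxcl3, neighbours on chromosome 5 whose products act on CXCR2. Cxcl3 (90786103 to 90789600, plus strand) was by far the most abundant of them, at 504, 437 and 427 CPM at 6 h and 791, 766 and 811 CPM at 9 h. No 6 h library came near the 9 h level, and its rise of 0.79 ± 0.08 (adjusted p = 2.16e-07) held without any 1 library. Cxcl2 rose from 154, 144 and 131 CPM to 220, 168 and 194 CPM (0.44 ± 0.11, adjusted p = 0.0335). Cxcl1 rose from 4.24, 7.44 and 8.03 CPM to 13.4, 18.8 and 14.1 CPM (1.23 ± 0.25, adjusted p = 0.00867), on 10 to 19 counts a library at 6 h and 40 to 58 at 9 h. The groups did not overlap for either gene.

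Both of the weaker calls rested on particular libraries. Cxcl1 no longer passed without WT 6 h replicate 1 (adjusted p = 0.0915) or WT 9 h replicate 2 (0.0615), and Cxcl2 without WT 6 h replicate 2 (0.109) or 3 (0.155) or WT 9 h replicate 1 (0.18) or 3 (0.108). The chemokines that draw monocytes, dendritic cells and T cells gave no call: Ccl3 was at 418 and 399 CPM, Ccl4 at 168 and 150 CPM, Ccl17 at 295 and 268 CPM and Ccl22 at 151 and 147 CPM (means at 6 h and 9 h). Ccl6 and Ccl9, the most abundant chemokine genes, changed by 0.06 ± 0.03 and -0.01 ± 0.05.

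The stretches before the start sites of these 3 chemokine genes and of Nfkbia are printed because they hold the kappaB consensus, the DNA letters that NF-kappaB binds. They come from RefSeq (GRCm38.p6), run 5′ to 3′ on the gene's strand, and have the matched letters in capitals.
Cxcl1, chr5:90891154-90891213, plus strand: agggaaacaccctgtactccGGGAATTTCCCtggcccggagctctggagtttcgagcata
Cxcl2, chr5:90903782-90903841, plus strand: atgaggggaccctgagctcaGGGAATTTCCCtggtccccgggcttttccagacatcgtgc
Cxcl3, chr5:90786008-90786067, plus strand: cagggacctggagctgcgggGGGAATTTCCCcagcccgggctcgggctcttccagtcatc
Nfkbia, chr12:55492648-55492696, minus strand: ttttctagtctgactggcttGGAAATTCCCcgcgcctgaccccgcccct
The 3 chemokine stretches share the same run of 11 capitals, which reads as a match on both strands, and it lies 71 to 61, 97 to 87 and 73 to 63 bases before the start of Cxcl1, Cxcl2 and Cxcl3. Of the 65 rises, 56 had a promoter in the table of 300-base windows (250 before the start and 50 after), and 11 of these (19.6%) held the consensus on either strand, against 10.3% of 8287 protein-coding genes tested and 8.18% of all 27025 promoters. The AP-1 letters TGACTCA were in 3.57% of the rises' windows and 3.38% of those of protein-coding genes tested. Tnf, Il1b, Il1a and Ptgs2 had no kappaB match in the 250 bases before the start. A match is a description of letters and not evidence of binding.

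Of 34 genes of NF-kappaB subunits, upstream kinases and feedback inhibitors, 3 rose and none fell, 30 of the 34 changes were above 0 and the median was 0.21. N4bp1, a ribonuclease that restrains cytokine output, rose from 79.8, 93.2 and 77.8 CPM to 117, 119 and 121 CPM, with no overlap (0.51 ± 0.10, adjusted p = 0.00569). Nfkbia, which encodes the inhibitor IkappaB alpha and is itself an NF-kappaB target, was at 124.8, 129.5 and 117.5 CPM and then at 158, 154 and 147 CPM. Its groups did not overlap either, and the change was 0.30 ± 0.08 (adjusted p = 0.0461). Tnfrsf1b, the gene of tumour necrosis factor receptor 2, rose by 0.26 ± 0.06 (adjusted p = 0.0387). The call of N4bp1 held without any 1 library, whereas Nfkbia lost its call without any 1 of the 6 (adjusted p up to 0.188) and Tnfrsf1b without each of them but WT 9 h replicate 2 (up to 0.261). Tnfaip3, the gene of the deubiquitinase A20, was at 138, 81.4 and 128 CPM and then at 170, 162 and 143 CPM, and did not pass (0.45 ± 0.16, adjusted p = 0.259).

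Other genes of the inflammatory response rose beside them. Ptgs2, the gene of cyclooxygenase 2, which makes prostaglandin precursors, went from 14.9, 10.5 and 18.2 CPM to 40.9, 33.1 and 32.2 CPM, a 2.42-fold rise with no overlap (1.28 ± 0.25, adjusted p = 0.00503). It missed the threshold without WT 6 h replicate 2 (adjusted p = 0.0514). Acod1, whose enzyme makes itaconate in activated myeloid cells, rose from 112, 99.8 and 106 CPM to 172, 154 and 145 CPM (0.56 ± 0.10, adjusted p = 0.00187). Naip2, a sensor protein of the NOD-like receptor family, rose from 62.0, 62.6 and 55.4 CPM to 80.5, 83.1 and 85.7 CPM (0.47 ± 0.09, adjusted p = 0.00335). The groups were apart for Acod1 and Naip2, and both calls held without any 1 library, but Naip2 missed the threshold in a fit of the 6 libraries alone (0.053). H2-M2, a nonclassical class I histocompatibility gene, rose 1.52-fold (0.61 ± 0.10, adjusted p = 0.000677) and also held.

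Nlrc5, which activates transcription of class I genes, rose from 13.6, 14.9 and 13.9 CPM to 24.5, 21.4 and 26.5 CPM (0.77 ± 0.19, adjusted p = 0.0326). None of the other 20 class I presentation genes tested passed, and that list had a median of 0.01. Icam1, an adhesion molecule of activated myeloid cells, rose by 0.27 ± 0.06 (adjusted p = 0.0191) as the only call among 27 genes of dendritic cell maturation and migration. Egr1 was the only call among 30 immediate early transcription factors, at 36.5, 45.5 and 38.0 CPM and then 55.6, 52.6 and 53.5 CPM (0.43 ± 0.11, adjusted p = 0.0362). Cebpb, a transcription factor of inflammatory and stress responses, rose by 0.23 ± 0.06 (adjusted p = 0.0326). Each of these 4 lost its call with some libraries left out: Nlrc5 without each but WT 9 h replicate 2 (up to 0.175), Icam1 without WT 6 h replicate 3 or WT 9 h replicate 2 or 3 (up to 0.133), Egr1 without each but WT 6 h replicate 2 (up to 0.199) and Cebpb without each but WT 9 h replicate 1 (up to 0.188).

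Type I interferon-stimulated genes gave no call among 45 tested. Of the 45, 40 had a change above 0 and the median was 0.32, against 0.01 over all genes. Their levels were low: Ifit1 was at 5.09, 7.44 and 5.07 CPM at 6 h and at 8.38, 13.6 and 4.51 CPM at 9 h, with overlap (0.58 ± 0.47, adjusted p = 0.803). Isg15 was at 0, 4.81 and 3.80 CPM and then 6.71, 4.87 and 2.71 CPM, also with overlap. Pattern recognition receptors and adaptors gave no call among 36. Clec7a, the gene of Dectin-1, was at 1255 CPM at 6 h and 1120 CPM at 9 h (means) and did not pass (-0.16 ± 0.05, adjusted p = 0.0898).

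NRF2 targets held the most calls of any list: 8 of 36 tested rose, none fell, 31 of the 36 changes were above 0 and the median was 0.24. Txnrd1, the gene of cytosolic thioredoxin reductase, stood at 828, 873 and 850 CPM at 6 h and at 1108, 1091 and 1088 CPM at 9 h. The 9 h libraries were close to each other and well above those of 6 h (0.36 ± 0.04, adjusted p = 8.97e-06). Slc7a11, the cystine importer that feeds glutathione synthesis, rose from 764, 739 and 782 CPM to 914, 877 and 916 CPM (0.24 ± 0.03, adjusted p = 0.000126). Cat, the catalase gene, went from 200, 189 and 193 CPM to 242, 256 and 248 CPM (0.36 ± 0.06, adjusted p = 0.00187). Neither gene's groups overlapped.

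G6pdx, whose enzyme supplies NADPH from the pentose phosphate pathway, rose from 217, 191 and 209 CPM to 251, 246 and 258 CPM (0.29 ± 0.05, adjusted p = 0.00187). Abcc1, an efflux pump for glutathione conjugates, rose from 265, 265 and 269 CPM to 344, 353 and 385 CPM (0.44 ± 0.08, adjusted p = 0.00349). Both kept their calls without any 1 library, as did Txnrd1, Slc7a11 and Cat, but in a fit of the 6 libraries alone G6pdx did not pass (0.0998). Hmox1, the heme-degrading enzyme gene, was at 1019, 932 and 924 CPM and then at 1173, 1151 and 1182 CPM (0.29 ± 0.06, adjusted p = 0.00921), and lost its call without WT 6 h replicate 2 (adjusted p = 0.0771) or 3 (0.0624). Fth1, the ferritin heavy chain gene and the most abundant of the list at 9879 and 10918 CPM (means), rose by 0.14 ± 0.03 (adjusted p = 0.0104) and did not pass without WT 6 h replicate 2 (0.139).

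Gss, the glutathione synthetase gene, rose by 0.43 ± 0.10 (adjusted p = 0.0253), but not without WT 6 h replicate 3 (0.189), WT 9 h replicate 2 (0.111) or WT 9 h replicate 3 (0.0535). It lies on the minus strand of chromosome 2 at 155563181 to 155592810, and the plus-strand gene Acss2 (155517948 to 155585724), which also rose, overlaps it. No source used here gives the strand setting of the counting, so reads of this pair cannot be told apart with certainty. Members that did not pass included Srxn1, at 164, 290 and 300 CPM and then 78.1, 402 and 245 CPM, and Gclm (0.33 ± 0.28, adjusted p = 0.82). Ptgr1, which reduces prostaglandins and lipid aldehydes, and Alas1, the first enzyme of heme synthesis, stood outside that list and rose by 0.39 ± 0.07 (adjusted p = 0.00377) and 0.19 ± 0.05 (adjusted p = 0.0337). Alas1 lost its call without any 1 library but WT 6 h replicate 1 (up to 0.28).

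The stretch before the start of Slc7a11 is printed because it holds the antioxidant response element core (TGA, any 4 bases, GC) on 2 occasions, both on the opposite strand, so that the capitals show its reverse complement.
Slc7a11, chr3:50443630-50443730, minus strand: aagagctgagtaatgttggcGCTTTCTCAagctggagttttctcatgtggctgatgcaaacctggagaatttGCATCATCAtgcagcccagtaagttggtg
The core is short and common: 39.3% of the 56 rises with a promoter held it, beside 43.6% of protein-coding genes tested and 41.4% of all promoters.

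**Figure D2:**
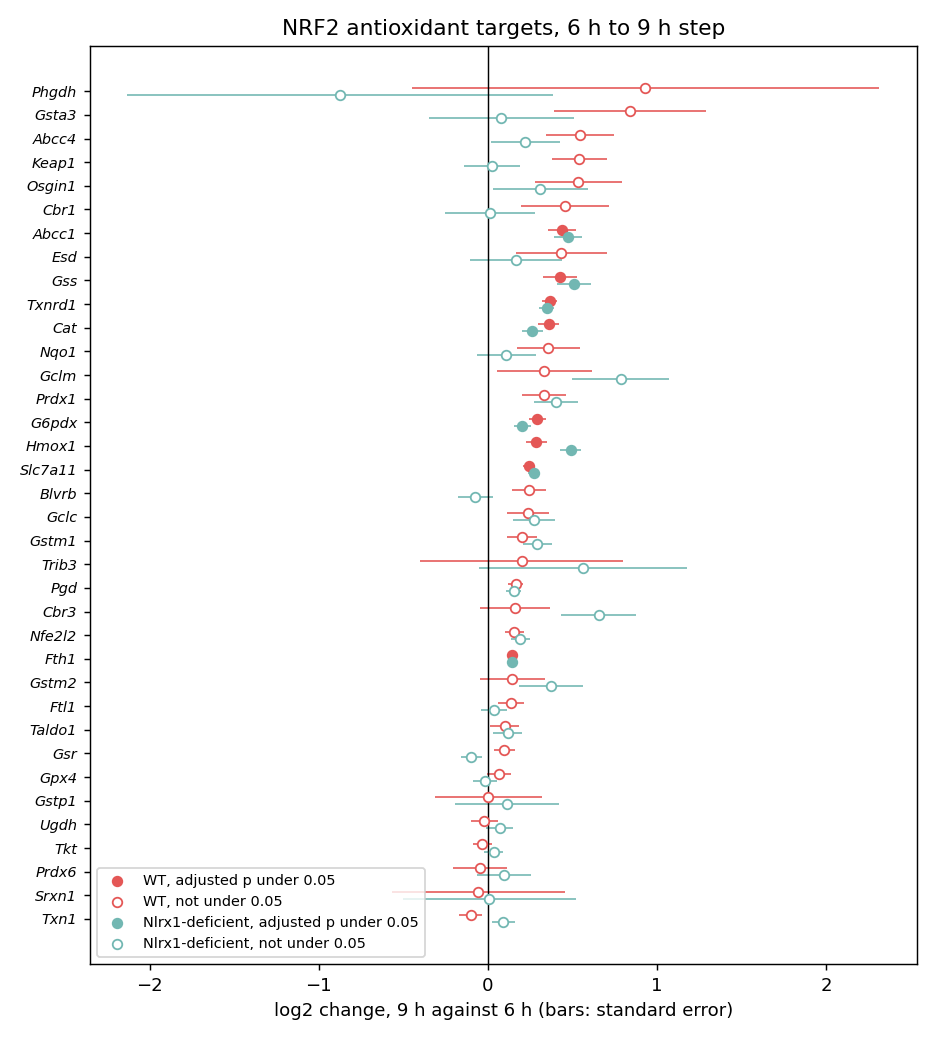
Log2 change from 6 h to 9 h (bars: standard error) of the 36 NRF2 targets tested, in WT (red) and Nlrx1-deficient cells (green); filled points passed an adjusted p of 0.05. In WT 31 of the 36 points lie above 0 and 8 are filled, and 8 are filled in Nlrx1-deficient cells.

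Of the 8 genes that rose by at least 2-fold, Ptgs2 and Cxcl1 are described above and the other 6 belonged to none of the inflammatory and antioxidant lists. Trim30c, a gene of the TRIM family, had the largest fitted change (3.54 ± 0.90, adjusted p = 0.0452), on 0, 2 and 0 counts at 6 h and 12, 13 and 11 at 9 h, and Trpm4, a calcium-activated cation channel gene, changed by 1.60 ± 0.41 (adjusted p = 0.0494). Each lost its call with 5 of the 6 libraries left out in turn, all but WT 6 h replicate 2 for Trim30c (up to 0.2) and all but WT 6 h replicate 3 for Trpm4 (up to 0.304). Wnk2, a kinase of the with-no-lysine family, rose 2.69-fold, from 7.64, 7.88 and 11.4 CPM to 23.5, 20.1 and 29.2 CPM (1.43 ± 0.27, adjusted p = 0.00331), and held without any 1 library. Tjp1, a tight junction scaffold gene, rose from 2.97, 2.62 and 2.11 CPM to 6.37, 7.46 and 5.71 CPM (1.32 ± 0.31, adjusted p = 0.0235), on 5 to 7 counts a library at 6 h. Cyp26b1, whose enzyme breaks down retinoic acid, rose from 14.4, 5.69 and 9.72 CPM to 26.8, 21.1 and 18.3 CPM (1.14 ± 0.27, adjusted p = 0.023). Wnk2, Tjp1 and Cyp26b1 had no overlapping groups. Tjp1 lost its call without any of the 3 WT 6 h libraries or WT 9 h replicate 2 (up to 0.145), and Cyp26b1 without WT 6 h replicate 2 or 3 or WT 9 h replicate 1 or 2 (up to 0.203). Trappc12, a vesicle tethering subunit gene, rose by 1.05 ± 0.20 (adjusted p = 0.00479) and missed the threshold without WT 6 h replicate 1 (0.0564).

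Several better counted genes rose with narrow spread. Rassf4, a Ras association domain gene, had the smallest p of all rises: 262, 283 and 268 CPM at 6 h and 415, 381 and 412 CPM at 9 h (0.57 ± 0.05, adjusted p = 1.11e-07). Abcc5, an efflux pump for organic anions and cyclic nucleotides, rose from 159, 150 and 148 CPM to 250, 208 and 229 CPM (0.59 ± 0.07, adjusted p = 3.4e-06). Acss2, which makes acetyl-CoA from acetate, rose from 32.7, 27.6 and 22.0 CPM to 47.6, 45.4 and 47.5 CPM (0.77 ± 0.15, adjusted p = 0.00349). The groups were apart in all 3, and the calls held without any 1 library, though that of Acss2 did not in a fit of the 6 libraries alone (0.0568). Smaller rises that also held were those of Prkcd, a protein kinase C gene (0.22 ± 0.04, adjusted p = 0.0028), Nrp1, a co-receptor of semaphorins and VEGF (0.24 ± 0.05, adjusted p = 0.00588), Creg1, a secreted glycoprotein gene (0.28 ± 0.05, adjusted p = 0.00331), and Gpnmb, a transmembrane glycoprotein of macrophages (0.18 ± 0.03, adjusted p = 0.00255). None of these 4 passed in a fit of the 6 libraries alone (0.053 to 0.102).

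Of 11 neutrophil markers tested 2 fell, S100a9 and Ngp, and none rose; all 11 changes were below 0 and the median was -0.40. S100a9, a calprotectin subunit gene, was at 298, 416 and 473 CPM at 6 h and 203, 277 and 236 CPM at 9 h. The groups did not overlap (-0.73 ± 0.13, adjusted p = 0.00187), and the call held without any 1 library but not in a fit of the 6 libraries alone (0.297). Ngp, a neutrophil granule protein gene, was at 130, 150 and 187 CPM and then 89.8, 116 and 95.6 CPM (-0.63 ± 0.12, adjusted p = 0.00555), and lost its call without WT 6 h replicate 3 (0.0942) or WT 9 h replicate 3 (0.054). S100a8, the partner subunit of S100a9, changed by -0.49 ± 0.13 and did not pass (adjusted p = 0.0651). The summed level of the 11 markers was 1847 to 2218 CPM at 6 h and 1578 to 1726 CPM at 9 h. Mmp8 (means 769 and 747 CPM, change -0.04) held the largest part of it. The untested markers had few counts and went both ways. Elane had 7 counts in all at 6 h and 16 at 9 h, Prtn3 8 and 21, Retnlg 4 and 11 and Ly6g 9 and 10. Mpo had 21 and 14 and Fcnb 5 and 0. In such bulk libraries fewer cells of a type and less RNA per cell cannot be told apart.

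Transcripts of the mitochondrial genome showed 2 calls among 13, mt-Co3 and mt-Atp8, which encode subunits of cytochrome c oxidase and ATP synthase. mt-Co3 was at 446, 462 and 511 CPM and then at 416, 371 and 371 CPM (-0.29 ± 0.06, adjusted p = 0.00531), and mt-Atp8 at 271, 301 and 332 CPM and then at 264, 228 and 216 CPM (-0.35 ± 0.08, adjusted p = 0.0173). Neither gene's groups overlapped. All 13 changes were below 0 after TMM scaling, with a median of -0.11, while the 13 genes together held 0.977% of all counts at 6 h and 0.976% at 9 h (exact permutation test, two-sided p = 1, where 3 against 3 libraries cannot go below 0.1). Without WT 9 h replicate 3 neither passed (adjusted p = 0.0703 for mt-Co3 and 0.209 for mt-Atp8), nor did either without WT 6 h replicate 3 (0.0855 and 0.168) or WT 9 h replicate 2 (0.0565 and 0.103), and mt-Atp8 did not pass without WT 6 h replicate 2 (0.0527). None of 75 nuclear-encoded oxidative phosphorylation genes passed (median -0.04).

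The other protein-coding falls belonged to no 1 list. Hnrnpa1, an RNA-binding protein of splicing, fell from 139, 140 and 131 CPM to 104, 110 and 102 CPM (-0.37 ± 0.06, adjusted p = 0.00128). Plau, the urokinase gene, fell from 520, 509 and 524 CPM to 433, 447 and 435 CPM (-0.24 ± 0.05, adjusted p = 0.00479). Rps27l, a ribosomal protein paralog, fell from 59.9, 67.4 and 68.5 CPM to 50.3, 43.5 and 40.6 CPM (-0.54 ± 0.10, adjusted p = 0.00331). The groups did not overlap and the calls held without any 1 library, but none of the 3 passed with no filter on low counts. Gm5483, a predicted gene, fell by 0.87 on the log2 scale (± 0.14, adjusted p = 0.0006) and held under both. In a fit of the 6 libraries alone none of these 4 passed (0.0522 to 0.0849).

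The protein-coding genes with the largest falls were less stable. Mfsd4a, a gene of the major facilitator transporters, was at 14.4, 13.6 and 20.7 CPM (31 to 49 counts) at 6 h and at 1.68, 1.62 and 1.80 CPM (5 or 6 counts) at 9 h. Its change of -3.22 ± 0.71 (adjusted p = 0.0169) lost its call without WT 6 h replicate 3 or any 1 of the 9 h libraries (up to 0.104). Ankrd11, a chromatin regulator gene, was at 238, 220 and 214 CPM and then at 136, 55.5 and 51.7 CPM (-1.47 ± 0.34, adjusted p = 0.0326). All 3 libraries at 9 h were lower, 1 of them much less so, and the call was lost without any 1 library but WT 9 h replicate 1 (up to 0.234). Rgp1, a Golgi trafficking gene, changed by -1.57 ± 0.39 (adjusted p = 0.0416) and did not pass without any 1 library but WT 9 h replicate 2 (up to 0.226).

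Structural and small RNA genes made up most of the falls: 32 of 129 snoRNA genes, 13 of 15 rRNA genes, 11 of 51 snRNA genes, 7 of 18 misc RNA genes, 6 of 28 miRNA genes and 2 of 11 mitochondrial tRNA genes. None of the 265 rose. Such RNAs mostly lack the poly(A) tail that the library kit selects for, so their counts measure what is carried through that selection as well as their level. Of the 103 falls, 64 were of genes under 200 bases, a class of which 239 were tested. Among the falls outside both classes, the lincRNA genes Gm42418 and AY036118 overlap the rRNA gene CT010467.1, which also fell. Reads of these genes cannot be told apart with certainty. None of the 18 protein-coding genes that fell overlaps a tested structural or small RNA gene. Only 84 of 10504 protein-coding genes tested (0.8%) do, so this says little about the falls.

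Among the 13 rRNA genes, 12 were copies of 5S rRNA, the small RNA of the large ribosomal subunit. n-R5s2 was at 48.4, 46.8 and 56.6 CPM at 6 h and at 12.1, 11.03 and 7.21 CPM at 9 h, with a wide gap between groups (-2.33 ± 0.25, adjusted p = 1.73e-06). n-R5s118 was at 69.6, 75.3 and 89.6 CPM and then at 22.5, 26.6 and 22.9 CPM (-1.70 ± 0.15, adjusted p = 8.16e-08). Both calls held without any 1 library. Gm24312, n-R5s106 and n-R5s130 had identical counts to each other, so these 3 are 1 measurement. Their sequence and their levels at 9 h were also those of n-R5s118. The snRNA genes Gm24486 and Gm24978 likewise had identical counts to each other. The numbers of falls therefore hold repeated measurements. Copies of 5S rRNA are near-identical, so how reads were divided between them is uncertain and a value of a single copy should be read as one of the family.

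Small nucleolar RNAs guide chemical modification of other RNAs, and most are cut from introns. Snord82 was at 53.5, 71.8 and 75.2 CPM at 6 h and at 39.6, 26.3 and 21.9 CPM at 9 h, with no overlap (-1.20 ± 0.19, adjusted p = 0.000638, held without any 1 library but 0.0851 in a fit of the 6 libraries alone). Snord66 was at 25.5, 27.6 and 28.7 CPM and then at 16.1, 15.9 and 12.6 CPM (-0.88 ± 0.18, adjusted p = 0.00921), and did not pass without WT 6 h replicate 3 (0.0598) or WT 9 h replicate 3 (0.106). Both are box C/D snoRNAs, and they are printed with the C box core TGATGA and the D box CTGA in capitals.
Snord82, chr1:86356261-86356330, minus strand: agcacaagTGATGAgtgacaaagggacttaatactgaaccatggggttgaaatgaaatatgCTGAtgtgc
Snord66, chr16:20684239-20684313, plus strand: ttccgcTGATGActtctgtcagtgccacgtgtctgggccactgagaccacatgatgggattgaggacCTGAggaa
With both boxes within 15 bases of the ends, the C box letters and D box letters were found in 22 of the 32 snoRNA genes that fell (68.8%) and in 58 of all 129 tested (45%). The genes that fell had a median length of 79 bases, against 90 over all tested.

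Shares of whole libraries differed too. rRNA genes held 7.23% to 7.67% of counts at 6 h and 3.52% to 6.03% at 9 h, with no overlap (exact permutation test, two-sided p = 0.1, the smallest that 3 against 3 can give). For snoRNA, snRNA, scaRNA, miRNA and misc RNA genes together the shares were 6.29% to 6.74% and 5.55% to 6.53%, which overlapped (p = 0.3 by the same exact test). WT 9 h replicate 3 had the lowest rRNA share, and without it 30 structural and small RNA genes fell in place of 71. What part of these falls came from the preparation of the libraries was not tested.

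**Figure D3:**
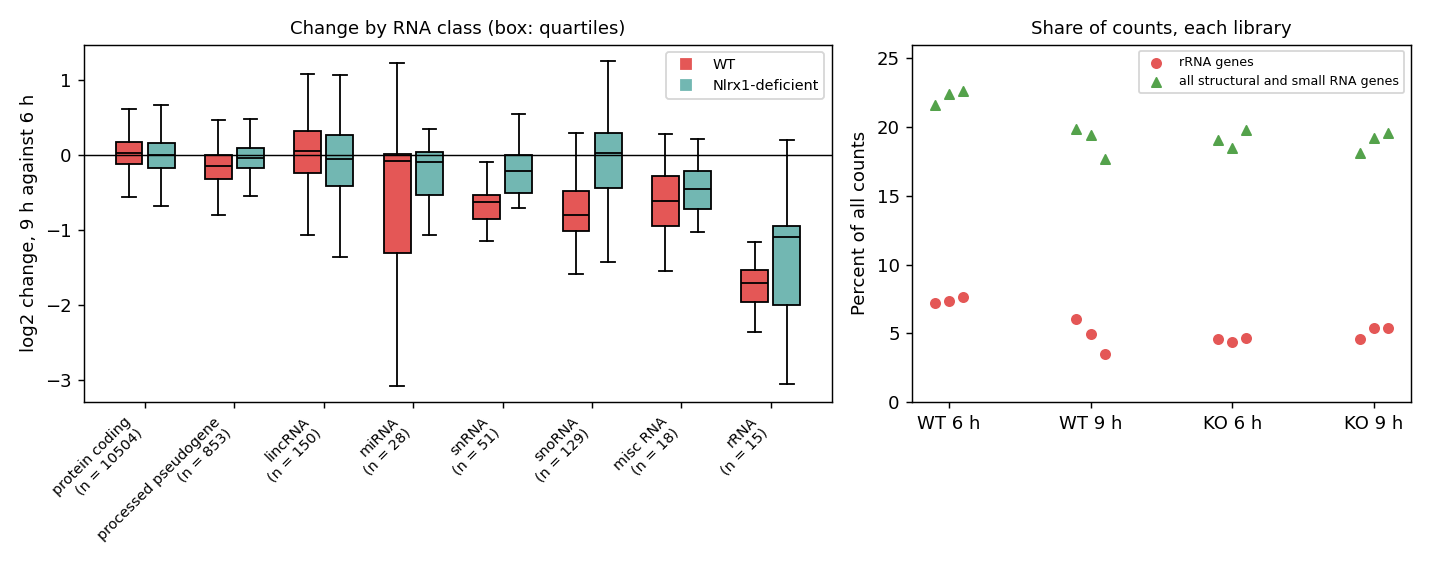
Left, log2 change from 6 h to 9 h of all genes tested in 8 RNA classes (boxes: quartiles, black line: median) in WT (red) and Nlrx1-deficient cells (green); right, percent of counts in rRNA genes (circles) and in all structural and small RNA genes (triangles) in each library. The WT medians are 0.02 for protein-coding genes, -0.80 for snoRNA genes and -1.70 for rRNA genes, and the WT 9 h libraries lie below those of 6 h in both shares.

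The step was also measured in cells of Nlrx1-deficient mice, in libraries of their own. In KO cells 97 genes rose (0.783%) and 59 fell (0.476%) between 6 h and 9 h, 156 in all, which became 97 without KO 6 h replicate 1, 95 without KO 9 h replicate 1 and 78 without KO 9 h replicate 2. Of the 65 genes that rose in WT, 64 changed in the same direction in KO and 37 passed there too, with medians of 0.43 in WT and 0.36 in KO, where 57.1% of all genes had the same direction. The exception in direction was Jpt2, at 0.77 ± 0.19 in WT (adjusted p = 0.0402) and -0.04 in KO (adjusted p = 0.984). Il1b rose by 0.95 in KO (adjusted p = 4.98e-06), Tnf by 1.11 (1.34e-07), Cxcl1 by 2.26 (8.97e-06), Cxcl3 by 0.63 (1.26e-05) and Ptgs2 by 1.27 (0.00183). Txnrd1 rose by 0.35 (2e-05), Slc7a11 by 0.27 (2.17e-05) and Hmox1 by 0.49 (1.62e-05), and 8 NRF2 targets passed.

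Of 18 protein-coding falls 15 had the same direction in KO and 3 passed, and of 71 structural and small RNA falls 43 (60.6%, beside the 57.1% of all genes) had the same direction and 10 passed, with medians of -1.12 in WT and -0.18 in KO. Of the 14 other falls 4 had the same direction and none passed, with medians of -0.79 and 0.08. Most of the 10 structural and small RNA genes that passed were copies of 5S rRNA. n-R5s118 was among the 10, at 54.8, 54.9 and 58.5 CPM and then at 13.0, 9.77 and 19.8 CPM in KO (-1.996, adjusted p = 3.08e-08). Gm24312, n-R5s106 and n-R5s130 were also among them, with the same sequence and the same KO change. These 4 should be read as 1 measurement. S100a9 and Ngp fell in KO by 0.85 and 1.02 on the log2 scale (adjusted p = 0.000436 and 5.99e-05), and 8 of the 11 neutrophil markers passed there. No gene called in WT was called in the opposite direction in KO. The rRNA share was 4.36% to 4.67% in KO at 6 h and 4.55% to 5.39% at 9 h.

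**Figure D4:**
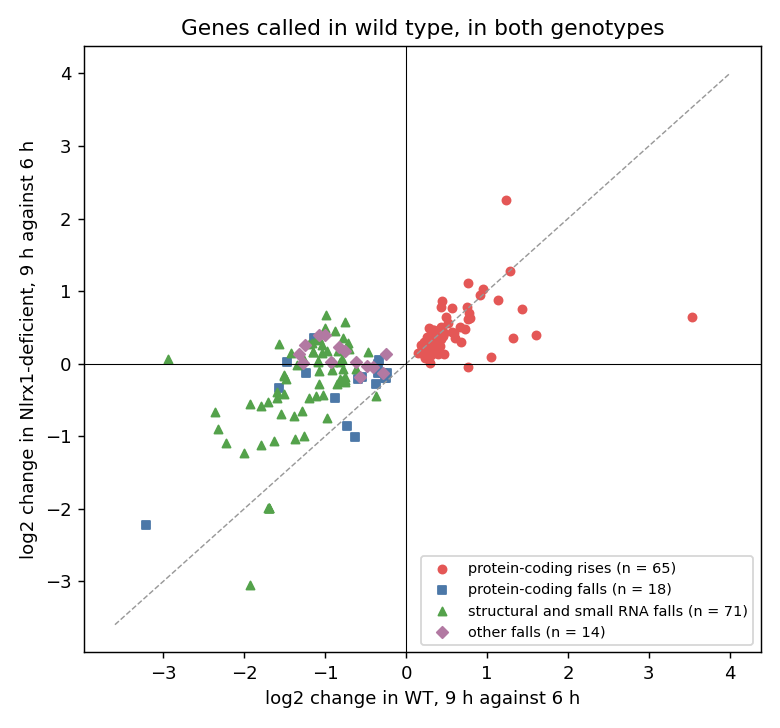
Log2 change from 6 h to 9 h in WT (horizontal) and in Nlrx1-deficient cells (vertical) of the 168 genes called in WT, with a dashed line of equal change. Of the 65 rises 64 lie above 0 on both axes, and the 71 structural and small RNA falls have a median of -1.12 in WT and -0.18 in Nlrx1-deficient cells.

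A test of the difference itself, WT step minus KO step, passed for 10 genes (0.0807%). Plk2, a kinase gene of stress responses, was at 653, 652 and 680 CPM and then 619, 571 and 588 CPM in WT, but at 581, 566 and 537 CPM and then 677, 690 and 629 CPM in KO. It was lower at 9 h in WT and higher in KO, with no overlap in either genotype (difference -0.40 ± 0.06, adjusted p = 0.0103), and did not pass without WT 9 h replicate 2 (0.062). The metallothionein gene Mt1, which binds zinc and copper, had a difference of -0.52 ± 0.10 (adjusted p = 0.0491), from -0.19 in WT and 0.33 in KO. Pacs1, a sorting adaptor gene, had the only positive difference, 1.80 ± 0.36 (adjusted p = 0.0491). The differences of Mt1 and Pacs1 lost their call with 10 and 11 of the 12 libraries left out in turn. Snord82 (-1.47 ± 0.26, adjusted p = 0.034), Snord66, Snord34 and 2 predicted snoRNA genes made up most of the rest. The libraries of the genotypes also differed as a whole in small RNA genes. These held 6.29% to 6.74% of counts in WT at 6 h and 5.55% to 6.53% at 9 h. In KO they held 3.61% to 4.28% and 3.07% to 3.62%. The part of this in the differences of step was not tested. None of the cytokine, chemokine, NF-kappaB or NRF2 genes was among the 10. With 1 library left out the count ran from 0 to 35: it was 35 when WT 9 h replicate 1 was dropped and 0 when replicate 2 was. It was 2 and 1 without WT 6 h replicates 2 and 3, 1 without WT 9 h replicate 3, 3, 1 and 3 without KO 6 h replicates 1, 2 and 3, and 2 and 1 without KO 9 h replicates 2 and 3.

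The step was then set against those before and after it in WT, which share its 6 h or its 9 h libraries, so that high or low values there enter both steps with opposite sign. The change from 6 h to 9 h differed from that between 3 h and 6 h for 46 genes (0.371%). Il1b had means of 27.2, 19.8 and 37.3 CPM at 3 h, 6 h and 9 h, so its level was lowest just before the rise (difference 1.37, adjusted p = 0.00131). Cxcl3 followed with 396, 456 and 789 CPM (0.59, adjusted p = 0.047), and N4bp1 with 103, 83.6 and 119 CPM (0.82, adjusted p = 0.0403). S100a9 was at its highest at 6 h, with 258, 396 and 239 CPM (-1.35, adjusted p = 0.00204), and Ngp with 105, 156 and 100 CPM (-1.20, adjusted p = 0.00764). None of these 5 differences passed in a fit of the 9 libraries of the 3 times alone. That of Il1b did not pass without WT 6 h replicate 2 (1.09, adjusted p = 0.13), those of S100a9 and Ngp without WT 6 h replicate 3 (adjusted p = 0.0752 and 0.176), that of Cxcl3 without any 1 library but WT 6 h replicate 1 and WT 9 h replicate 2 (up to 0.35), and that of N4bp1 without any 1 library but WT 3 h replicate 3 and WT 9 h replicate 1 (up to 0.271). Without a single library the 46 became 22 (WT 3 h replicate 1), 27 (WT 3 h replicate 2), 29, 11 and 12 (WT 6 h replicates 1, 2 and 3) and 13 (WT 9 h replicate 3).

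The next step, from 9 h to 12 h, differed from the one described here upward for 214 genes (1.73%) and downward for 227 (1.83%). The WT 12 h libraries also differed as a whole: small RNA genes held 3.82% to 4.01% of counts there against 5.55% to 6.53% at 9 h, mitochondrially encoded genes 1.19% to 1.31% against 0.924% to 1.01%, and 28089 to 33759 genes had a count against 24404 to 26258. The part of these shifts in the differences between steps was not tested. For interleukin-1 and Tnf the rise continued and was larger: Il1b went from 37.3 to 184 CPM (difference between steps 1.39, adjusted p = 1.64e-05), Tnf from 143 to 623 CPM (1.36, adjusted p = 1.64e-05), Il1a from 136 to 501 CPM (1.13, adjusted p = 0.00097) and Egr1 from 53.9 to 241 CPM (1.73, adjusted p = 3.75e-07). Of the cytokine list 6 had a larger next step and of the chemokine list 10, among them Ccl3, Ccl4 and Ccl22, which had no call between 6 h and 9 h. Cxcl3 was at 789 CPM at 9 h and 780 CPM at 12 h (-0.81, adjusted p = 0.00025), while Cxcl2 went from 194 to 597 CPM (1.18, adjusted p = 0.000203).

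For 17 of 36 NRF2 targets the next step was lower than that from 6 h to 9 h, for 1 (Nfe2l2, the NRF2 gene itself) it was higher, and for the others the difference did not pass. Txnrd1 had means of 607, 669, 851, 1095.5 and 694 CPM at 0, 3, 6, 9 and 12 h, so 9 h held its highest level (difference between steps -1.02, adjusted p = 1.39e-09). Hmox1 had 457, 748, 958, 1169 and 641 CPM (-1.15, adjusted p = 2.94e-08), and Cat 149, 148, 194, 249 and 157 CPM (-1.03, adjusted p = 4.25e-07). Acss2 and Rassf4 had the same shape, with 46.8 and 20.2 CPM (-1.98, adjusted p = 6.58e-06) and 402 and 294 CPM (-1.02, adjusted p = 2.94e-08) at 9 h and 12 h. The 441 genes whose next step differed in either direction became 240 with WT 9 h replicate 2 left out and 212 with replicate 3 left out.

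**Figure D5:**
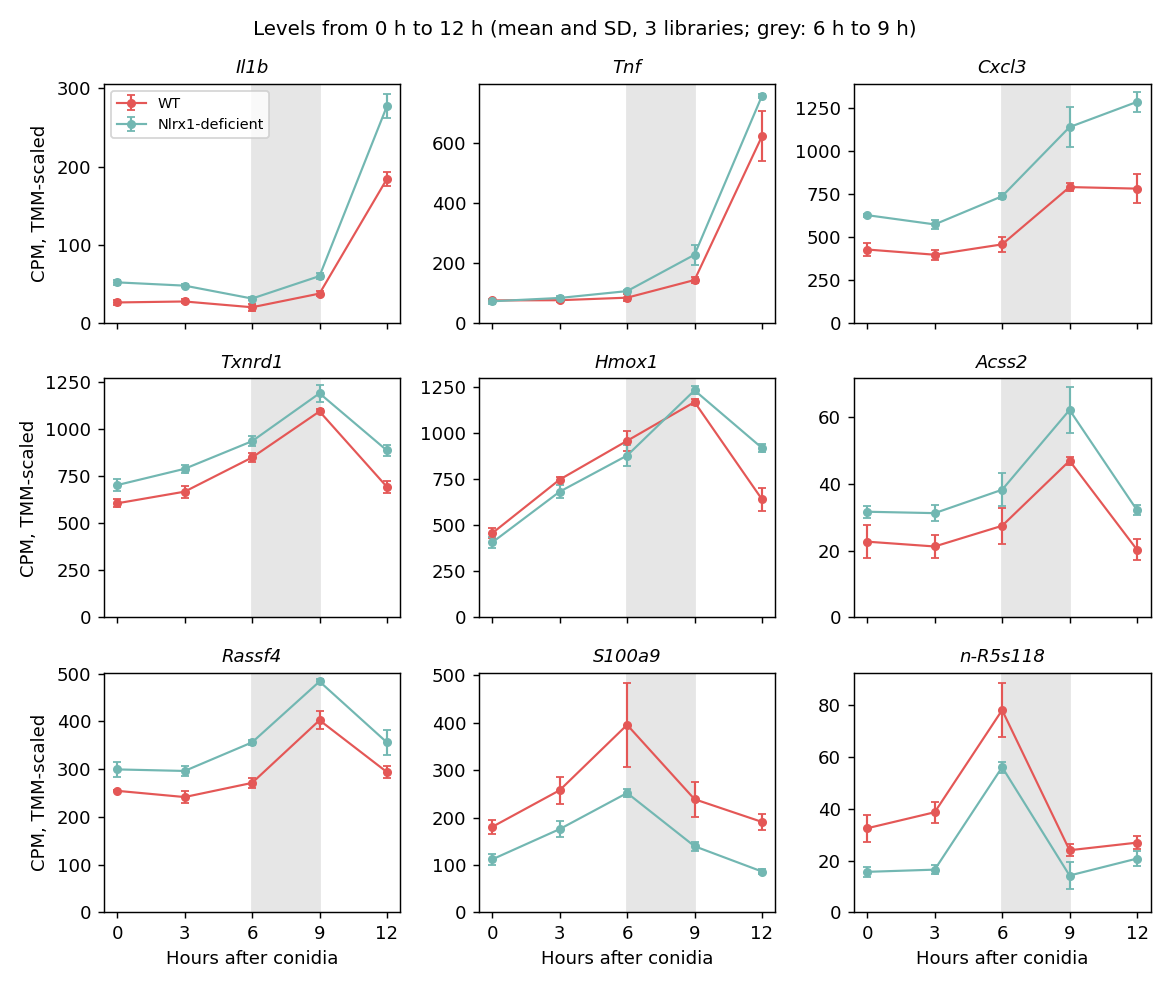
Mean level (CPM, error bars: SD of 3 libraries) of 9 genes at 0, 3, 6, 9 and 12 h in WT (red) and Nlrx1-deficient cells (green), with the interval from 6 h to 9 h in grey. Il1b and Tnf rise further after 9 h (to 184 and 623 CPM in WT). In WT, Txnrd1, Hmox1, Acss2 and Rassf4 are highest at 9 h, and S100a9 and n-R5s118 at 6 h.

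Of the 37 lists with a tested member, 21 had no call in either direction between 6 h and 9 h. They included heat shock and chaperone genes (22 tested, median 0.01), autophagy genes (28, median 0.05), cholesterol synthesis genes (27, median 0.08), hypoxia response genes (25, median -0.03), lysosomal hydrolases and the proton pump (44, median 0.08), NADPH oxidase genes (12, median 0.01), class II presentation genes (13, median -0.03), BCL2 family and death genes (26, median 0.03), cell cycle genes (29, median 0.07) and Myc with ribosome biogenesis genes (40, median -0.10). For 30 of those last 40 genes the change was below 0, and none passed.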

How the data were processed

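RNA-seq of 30 libraries was used (10 groups of 3). Per the labels' protocols, libraries were made with a stranded poly(A) kit. The submitters' processing notes name Trimmomatic 0.35, DESeq2, HISAT2, StringTie and build GRCm38, without roles, annotation release, strand setting or counting mode. What the authors deposited per gene are unnormalized whole counts. The authors' own comparison tables were not used.

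Names and biotypes came from GENCODE M21 (54495 of 54532 IDs found). Genes were kept by filterByExpr (minimum count 10), which kept 98.66% of counts. edgeR 4.0.16 (TMM, robust quasi-likelihood, 1 coefficient per group, R 4.3.3) was fitted to all libraries. Adjusted p-values are two-sided over 12393 genes. The biological coefficient of variation was 13.7%. The script was tested on simulated data. Alternatives included DESeq2 1.42.0.

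Named genes were the 15 largest changes in each direction with at least 5 CPM and no overlap, up to 4 calls in each direction and 2 abundant others of each of 39 lists, 8 differences in each direction of each step test, and a fixed set; small RNA genes could be given by count. Trim30c, Acod1, Abcc1, Gss, Rgp1, Ankrd11, Prkcd, Nrp1, Creg1, Rassf4, Abcc5, H2-M2, Plau, Rps27l, Hnrnpa1, Gm5483, Alas1 and Ptgr1 fell outside it and were named after their values were seen. CT010467.1, AY036118, Gm24486, Gm24978, Flt3, Cd209a, Xcr1 and Zbtb46 were also named after their values were seen. So were the untested neutrophil markers Elane, Prtn3, Retnlg, Ly6g, Mpo and Fcnb. The comparison, lists and rule were chosen with earlier results of these data known. Some items are not reported here.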

Additional observations from a re-analysis of the deposited data

Results flagged for a closer look

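The change from 6 h to 9 h differed between WT and KO, by the interaction test of edgeR over all genes, for 10 genes, given here as WT minus KO on the log2 scale. The difference was -2.99 for Gm25789, -1.54 for Gm23301, -1.47 for Snord82, -1.34 for Snord34 and -1.33 for Snord66, all snoRNA genes. It was -1.47 for the processed pseudogene Gm8543 and -0.39 for the lincRNA gene Gm42418. Among protein-coding genes it was -0.52 for Mt1, -0.40 for Plk2 and 1.80 for Pacs1. For Gm8543 the WT step was -1.08 and the KO step 0.39, and for Gm42418 -0.25 and 0.14. Gm42418 overlaps the rRNA gene CT010467.1, so its reads cannot be told from rRNA reads with certainty. Groups of 3 libraries were too small for the check of single libraries that lie apart.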

How the results depend on the processing

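The 168 genes changed between 6 h and 9 h in WT became 106 with no filter on low counts, 42 from the libraries of the compared groups alone, and 82 to 158 with 1 library left out. The 156 of KO became 102, 42, and 78 to 151. The 46 differing from the previous step became 19, 12, and 11 to 55, and the 441 differing from the next step 212 to 421 with 1 library left out. The 10 differing between WT and KO became 6 with DESeq2 size factors, 28 with DESeq2's Wald test (the other tool run), 3 with no filter, 0 from the compared groups alone, and 0 to 35 with 1 library left out. A fit with the structural and small RNA share as covariate and a fit of protein-coding genes alone were chosen after seeing the data. The covariate gave 0 genes for the WT step, 0 for WT against KO, 4 for the previous step and 160 for the next. Protein-coding genes alone gave 55, 1 and 4 for the first 3. The cause of these shifts was not tested.

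Replicate numbers did not pair the libraries (correlations of same-numbered deviations -0.032, 0.026 and -0.038). With a replicate block the counts were 155 for the WT step, 156 for KO, 36 and 424 for the previous and next steps, and 3 for WT against KO.

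The share of small RNA genes changed by -0.41 percentage points, or -1.48 per 100 protein-coding counts, and that of mitochondrially encoded genes by -0.00072 or -0.13. With the covariate Gm20594 changed by 0.0228 in place of -1.14, and the log2 difference of step of Lars2, WT 9 h to 12 h against 6 h to 9 h, ran from -9.40 to 0.19, the latter without WT 9 h replicate 2, in place of -8.26. DESeq2 size factors, DESeq2's Wald test and totals without small RNA genes kept the WT count within 1.5 times. The genes were not all the same: the Wald test kept 45 of the 65 rises and 81 of the 103 falls. Of the genes named above, it did not call Nfkbia, Nlrc5, Egr1, Icam1, Gss, Tjp1 or Trim30c. Protein-coding genes alone kept 37 of the 65 rises. That fit lost the same genes and Cxcl2, Tnfrsf1b, Cebpb, Alas1, Trpm4, Ankrd11 and Rgp1. Depth was 1722384 to 3509429 counts a library, which limits genes of few counts.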
